A study of Mus musculus with 143 samples.

Results

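The mouse genes described here are the zinc finger genes whose symbol is Zfp followed by 3 digits, the first of them 8 or 9. They were chosen by symbol and by no measured value, though with earlier results of these data known, and a gene of this form was left out. This gave 90 genes among the 55740 gene identifiers of the count files. All 90 were listed in every poly(A) and RiboMinus file. A RefSeq position on the mouse genome build GRCm38.p6 was found for 87 of them, and RefSeq calls all 87 protein coding. By position, 55 of the 90 lay in 8 clusters, taken as runs of 3 or more of these genes with gaps of at most 1000000 bases. The chromosome 4 cluster held 14 genes, one chromosome 17 cluster 11, and the chromosome 2 cluster 10.

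The study asked what happens to transcripts in mouse oocytes that lack the catalytic subunits of the RNA exosome, the complex that trims and degrades RNA from its 3′ end. DIS3 and EXOSC10 are its ribonucleases. Each library was made from 1 oocyte. The poly(A) libraries cover oocytes at the germinal vesicle (GV) stage, oocytes after 3 h of culture (GV3h) and ovulated eggs arrested at metaphase II (MII), 8 control libraries per stage, beside 15, 16 and 16 libraries of the genotype labelled dis3cKO, a conditional Dis3 knockout. The RiboMinus libraries, made from total RNA depleted of ribosomal RNA, form 6 groups of 8: adult GV oocytes of control and dis3cKO genotype, and oocytes labelled p20 of control, dis3cKO, exo10cKO and dcKO genotype. In the dcKO group both the Dis3 and the Exosc10 transcript were lower than in control. The labels state that the mutant mice were made with CRISPR/Cas9 and name no Cre driver, no animal behind an oocyte and nothing that the control and mutant animals share. GV and GV3h oocytes came from ovaries and were kept in M2 medium, and MII eggs came from the oviducts of superovulated females. Because no animal is named, a p-value here measures the spread between single oocytes, which may be smaller than that between animals. RiboMinus titles carry 2 tags per group (such as AM1713 and AM1757), and the labels do not say what these mark. If they mark animals, a RiboMinus group holds 2.

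C2H2 zinc finger proteins read DNA through tandem fingers, each of which contacts a few bases. In rodents many of them carry a KRAB domain and sit in tandem arrays of recently duplicated genes. A KRAB zinc finger protein recruits TRIM28 and, with it, the histone methyltransferase SETDB1, and this machinery silences transposable elements and protects imprints in oocytes and early embryos. Among the genes with a studied role, ZFP809 starts the silencing of retroviral sequences, ZFP819 has been tied to the repression of retroelements, and ZFP932 binds endogenous retroviruses in embryonic stem cells. ZFP830 is needed for the survival of early embryonic cells. For most of the others no role is given here.

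Promoter sequences are shown for the genes on which the results turn. They are 3 measured neighbours of the chromosome 2 cluster (Zfp970, Zfp971 and Zfp931), a gene of the same cluster with almost no counts (Zfp966), and the genes with the largest rise (Zfp800) and a fall in all 4 Dis3 knockout comparisons of GV, GV3h, MII and adult oocytes (Zfp839). Each run is 300 bases, 250 before and 50 after the RefSeq transcript start on GRCm38.p6, read 5′ to 3′ on the strand of the gene. Capitals mark matches to the CCAAT box, written CCAAT, or to the GC box, written GGGCGGG, on either strand. The windows are chr2:177464492-177464791 on the plus strand for Zfp970, chr2:178023034-178023333 on the plus strand for Zfp971, chr2:178078376-178078675 on the minus strand for Zfp931, chr2:175931051-175931350 on the minus strand for Zfp966, chr6:28397956-28398255 on the minus strand for Zfp800, which has 2 promoters listed, and chr12:110850029-110850328 on the plus strand for Zfp839.
Zfp970: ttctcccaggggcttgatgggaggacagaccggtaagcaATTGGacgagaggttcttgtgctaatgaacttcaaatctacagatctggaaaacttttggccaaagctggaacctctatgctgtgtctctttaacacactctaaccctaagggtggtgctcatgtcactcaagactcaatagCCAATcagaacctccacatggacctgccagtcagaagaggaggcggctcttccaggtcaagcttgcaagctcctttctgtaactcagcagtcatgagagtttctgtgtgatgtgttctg
Zfp971: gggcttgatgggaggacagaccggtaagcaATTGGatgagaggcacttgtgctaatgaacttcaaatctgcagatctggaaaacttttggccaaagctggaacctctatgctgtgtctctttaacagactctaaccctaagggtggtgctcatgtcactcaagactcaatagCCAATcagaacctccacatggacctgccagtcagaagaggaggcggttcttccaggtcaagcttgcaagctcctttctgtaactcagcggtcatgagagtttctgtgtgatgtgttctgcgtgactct
Zfp931: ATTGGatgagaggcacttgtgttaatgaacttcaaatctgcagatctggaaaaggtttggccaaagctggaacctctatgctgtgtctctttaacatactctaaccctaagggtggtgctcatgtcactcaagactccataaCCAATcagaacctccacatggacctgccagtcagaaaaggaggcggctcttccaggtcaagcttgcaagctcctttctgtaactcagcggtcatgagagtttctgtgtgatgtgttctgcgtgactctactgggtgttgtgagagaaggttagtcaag
Zfp966: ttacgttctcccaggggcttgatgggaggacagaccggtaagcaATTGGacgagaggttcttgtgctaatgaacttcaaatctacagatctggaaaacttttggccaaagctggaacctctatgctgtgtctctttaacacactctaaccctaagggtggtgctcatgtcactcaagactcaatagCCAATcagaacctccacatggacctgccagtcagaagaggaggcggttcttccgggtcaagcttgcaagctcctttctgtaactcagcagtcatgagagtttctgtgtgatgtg
Zfp800: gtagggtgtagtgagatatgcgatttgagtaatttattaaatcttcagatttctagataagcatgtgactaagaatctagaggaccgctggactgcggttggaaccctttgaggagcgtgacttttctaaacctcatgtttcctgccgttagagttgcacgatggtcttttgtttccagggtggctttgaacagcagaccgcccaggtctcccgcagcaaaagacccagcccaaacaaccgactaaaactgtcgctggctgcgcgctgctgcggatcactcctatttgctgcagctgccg
Zfp839: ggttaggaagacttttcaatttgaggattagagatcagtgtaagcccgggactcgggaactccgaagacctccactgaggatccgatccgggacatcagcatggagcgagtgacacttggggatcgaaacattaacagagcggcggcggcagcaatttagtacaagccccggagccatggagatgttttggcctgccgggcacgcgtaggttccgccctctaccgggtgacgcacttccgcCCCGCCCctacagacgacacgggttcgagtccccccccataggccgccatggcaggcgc

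The 4 chromosome 2 promoters shown were much alike. Zfp970 and Zfp971 shared 97.6% of 291 aligned bases, Zfp931 and Zfp971 97.0% of 270, and Zfp966 and Zfp970 99.3% of 295, while the promoters of Zfp966 and Zfp967 were the same over all 300 bases. Zfp931 and Zfp970 shared 95.4% of 261, and Zfp972, another gene of the cluster, 81.8% of 280 with Zfp970. Each of the 4 chromosome 2 windows shown held 2 CCAAT matches, the Zfp839 window 1 GC box and the Zfp800 window no match to any of the 6 motifs searched. RefSeq promoters were found for 77 of the 90 genes, 91 windows in all, and the CCAAT letters occurred in 73.6% of them against 37.4% of all 32851 promoters of that length. The other 5 motifs were GGGCGGG (31.9% against 25.6%), the E-box CAGGTG bound by FIGLA (11% against 20.2%), TAATTG as bound by NOBOX (3.30% against 8.00%), the ETS letters CCGGAAGT (4.4% against 3.89%) and the NRF1 letters GCGC, N and TGCGC in a row (2.20% against 4.60%), each searched on both strands. These shares describe letters in near-copies that are not independent, and a match is not a bound site. Where genes are this alike, reads that fit several copies may have been dropped or assigned to one of them by the counting, so the levels of single cluster genes are uncertain. Besides, 37 of the 90 genes overlap another RefSeq gene (Zfp839 and Zfp800 among them), and the sources used here do not say whether counting used strand.

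The libraries held 4843964 to 15412200 gene counts in the poly(A) set and 8492102 to 35429028 in the RiboMinus set, and no 2 files were identical. The targeted genes were checked first. Dis3 fell by 2.18, 2.57 and 3.63 on the log2 scale in GV, GV3h and MII dis3cKO libraries, by 3.13 in adult RiboMinus dis3cKO libraries, and by 2.74 and 2.25 in p20 dis3cKO and dcKO libraries. Exosc10 fell by 5.22 in p20 exo10cKO and 4.01 in p20 dcKO libraries. All 8 oocyte markers (Gdf9, Bmp15, Zp1, Zp2, Zp3, Ooep, Figla and Nlrp5) were counted in every group. The 12 granulosa and cumulus markers summed to 49.9 to 204 CPM (counts scaled to a library total of 1000000) per library, against 3772 to 20880 CPM for the oocyte markers. Ptx3 stood at 0 in all but 1 group, and the granulosa sum was led by Nr5a2 or Cyp19a1. Some libraries stood apart from their group by their mean correlation with it: MII dis3cKO 15 (0.806, against 0.906 to 0.942 for the rest), GV dis3cKO 8 and 6 (0.878 and 0.898) and GV control 1 (0.941, against 0.954 to 0.967). Where leaving these out took away the call of a named change, both values are given. The numbers of members called without them are given at the end. The new split into higher and lower is given only for MII dis3cKO against control.

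Expression of the family was uneven. Counts were high enough to test 71 of the 90 genes in at least 1 fit, 69 in the poly(A) fit, 65 in the adult RiboMinus fit and 70 in the p20 fit. The other 19 were in none, and Zfp968 and Zfp969 had no count in any of the 119 libraries. In the chromosome 2 cluster, over all poly(A) and all RiboMinus libraries, Zfp965 had 0 and 3 counts, Zfp966 0 and 2, Zfp967 2 and 6, Zfp831 28 and 80, Zfp973 105 and 31, and Zfp972 243 and 86. Zfp935, on chromosome 13, had 3684 poly(A) counts and 0 RiboMinus counts. The poly(A) files list 55573 gene identifiers and the RiboMinus files 55487, so the 2 sets were not counted on the same list. For Zfp935 a difference in counting and one in level cannot be told apart.

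The best-counted gene was Zfp957. In poly(A) control GV oocytes its lowest, median and highest values were 524, 563 and 624 CPM. The next 9 by median in the same libraries were Zfp958 (195 CPM), Zfp951 (165 CPM), Zfp961 (98.2 CPM), Zfp956 (93.9 CPM), Zfp979 (93.3 CPM), Zfp873 (93.2 CPM), Zfp952 (91.9 CPM), Zfp930 (73.9 CPM) and Zfp821 (63.7 CPM). CPM grows with transcript length, so this order describes counts and not transcript numbers. The ranges of neighbours in this order overlapped, except that every Zfp957 value was above every value of the others. In the GV dis3cKO group 2 libraries were low for Zfp957, library 8 at 135 CPM and library 6 at 192 CPM, against 460 to 781 CPM in the other 13.

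**Figure D1:**
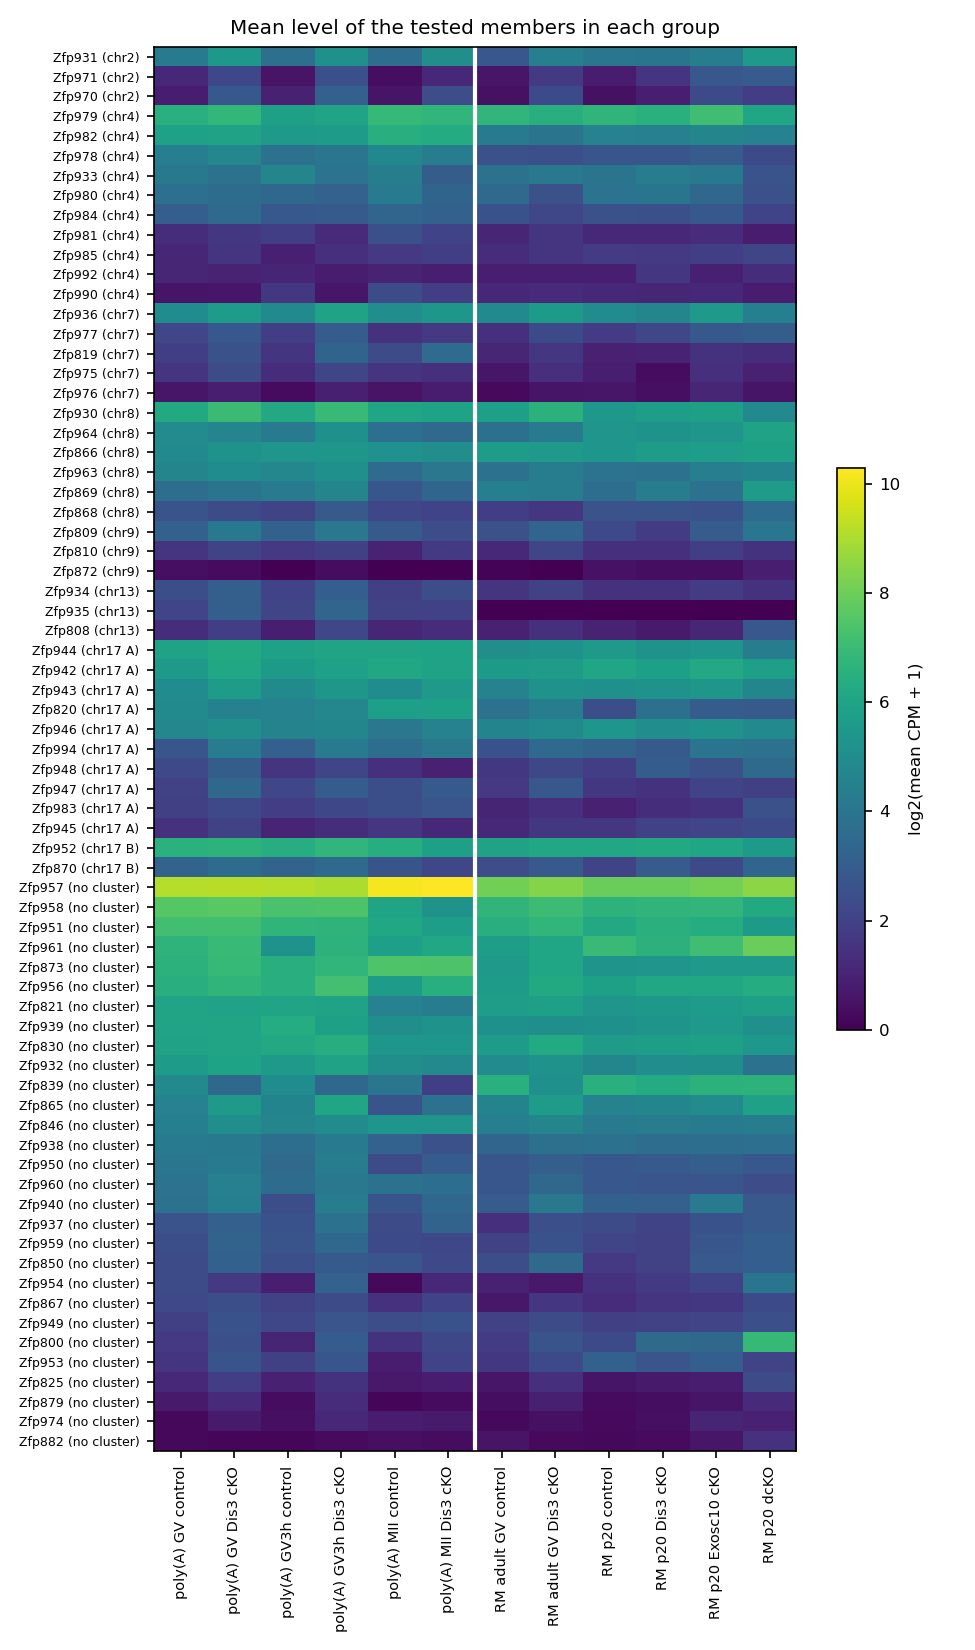
Heat map of the mean level of each of the 71 tested genes (rows, grouped by cluster) in the 12 groups (columns, poly(A) left and RiboMinus right of the white line), as log2 of mean CPM plus 1. Zfp957 is the brightest row throughout, Zfp935 is at 0 on the RiboMinus side, and Zfp800 is bright in the p20 dcKO column.

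Together the 90 genes made up a larger share of gene counts in GV-stage knockouts than in their controls. Their summed level was 2372 ± 177 CPM (SD, n = 8) in GV control and 2780 ± 211 CPM (SD, n = 15) in GV dis3cKO oocytes, 2143 ± 90.9 CPM (SD, n = 8) and 2620 ± 206 CPM (SD, n = 16) at GV3h, and 2633 ± 259 CPM (SD, n = 8) and 2741 ± 256 CPM (SD, n = 16) at MII. In RiboMinus libraries it was 1549 ± 41.3 CPM in adult control against 1887 ± 170 CPM in adult dis3cKO oocytes. At p20 it was 1658 ± 56.5 CPM in control, 1679 ± 172 CPM in dis3cKO, 1945 ± 165 CPM in exo10cKO and 2064 ± 113 CPM in dcKO oocytes (SD, n = 8 each). Without Zfp957 the poly(A) means were 1802 CPM in GV control and 2204 CPM in GV dis3cKO oocytes. They were 1586.5 and 2097 CPM at GV3h, and 1504 and 1493 CPM at MII, in the same order. The small excess at MII thus rested on Zfp957. These sums were not tested. CPM is a share of a library, and the ERCC spike-in RNA gives the other scale used below.

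In oocytes without Dis3, more of these genes rose than fell at GV, at GV3h and in adult total RNA, on the scale of library share. At GV, 14 of 69 tested genes rose and 1 fell (edgeR's quasi-likelihood test, Benjamini-Hochberg adjusted p under 0.05), where 21.9% of all tested genes were called, 13.6% higher and 8.33% lower. At GV3h 24 rose and 5 fell, against 38.6% of all genes called, 22.9% higher and 15.7% lower. At MII 11 rose and 7 fell, against 42.1% of all genes, 27.3% higher and 14.8% lower; without the outlying library MII dis3cKO 15 the split was 11 higher and 13 lower. With counts summed over runs of 4 title numbers, 7 members were called at GV and 13 at GV3h. The share of all genes is not given for that summing or for the left-out library, so these counts are not compared with it. In adult RiboMinus libraries 24 of 65 rose and 2 fell, against 28.1% of all genes, 15.7% higher and 12.4% lower. The share of members called was thus 21.7% at GV, near that of all genes, and 26.1% at MII, below it; in adults 26 of 65 is above it, but none was called there with counts summed per title tag (18 at an unadjusted edgeR p under 0.05). The median log2 fold change of the tested members was 0.41 at GV, 0.42 at GV3h, -0.05 at MII and 0.48 in adult RiboMinus, where the medians of all tested genes were 0.04, 0.07, 0.16 and 0.03. The 283 other genes named Zfp plus 1 to 3 digits gave 34 higher and 12 lower of 240 tested at GV, 91 and 18 at GV3h, 60 and 29 at MII, and 59 and 16 of 230 in adult RiboMinus.

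The split between higher and lower depended on the scale at MII and in adult RiboMinus libraries. Scaled to the ERCC spike-in, the median of all genes moved to -0.23 at GV, 0.04 at GV3h, 0.52 at MII and -0.52 in adult RiboMinus. On that scale 5 members were higher and 1 lower at GV, where 7.27% of all genes were higher and 13.3% lower. At GV3h 23 were higher and 5 lower, against 17.5% and 10.6% of all genes, and at MII 19 and 5, against 37.6% and 4.31%. In adult RiboMinus libraries 3 were higher and 10 lower, against 4.56% and 40.1%. Adult oocytes without Dis3 had a lower ratio of gene to spike-in counts (260 ± 78.6 against 403 ± 48.5, SD, n = 8 each). Of the 13 adult member calls on that scale 10 were decreases, as were most calls over all genes (6144 lower and 699 higher).

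**Figure D2:**
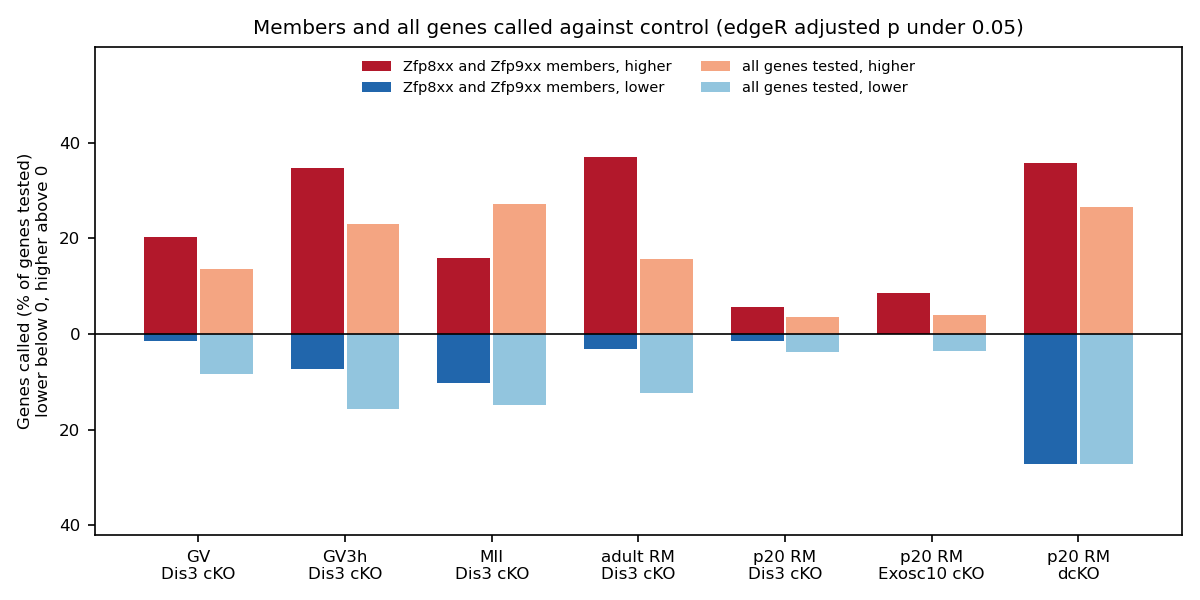
Percent of tested genes called higher (above 0) and lower (below 0) against control in the 7 knockout comparisons (edgeR, adjusted p under 0.05), for the Zfp800 to Zfp999 genes (dark bars) and for all tested genes (light bars). In adult RiboMinus libraries 24 of 65 members were higher and 2 lower, against 15.7% and 12.4% of all genes. On the spike-in scale more adult members were lower than higher, where 4.56% of all genes were higher and 40.1% lower. At p20 7.14% of members were called without Dis3 and 8.57% without Exosc10, near the 7.37% and 7.45% of all genes.

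Zfp970, Zfp971 and Zfp931, the only genes of the chromosome 2 cluster with enough counts to test, rose in every Dis3 knockout comparison of GV, GV3h, MII and adult oocytes. Of 65 members tested in all 4, 5 were higher in all 4 (these 3, Zfp865 and Zfp943), and Zfp839 was lower in all 4; of all genes, 5.57% and 2.81% met these rules. The GV call of Zfp971 was lost when outlying libraries were left out, and its adult call on the spike-in scale, as given below. Nothing is given here on what the proteins of the 3 chromosome 2 genes do. The 4 comparisons draw on 3 stages of one poly(A) experiment and on one RiboMinus experiment, each with its own control oocytes.

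Zfp970 was near the detection limit in control oocytes and plainly counted in the knockout. At GV its lowest, median and highest values were 0, 0.528 and 2.75 CPM in controls and 2.17, 6.42 and 10.0 CPM in dis3cKO oocytes. At GV3h they were 0.229, 0.840 and 2.11 CPM in controls and 5.26, 7.35 and 11.1 CPM in knockouts, and at MII 0, 0.265 and 2.32 CPM and 1.33, 4.34 and 8.87 CPM. The GV3h groups did not overlap, and at GV and MII the overlap came from 1 high control in each, GV control 1 at 2.75 CPM and MII control 2 at 2.32 CPM. The log2 fold changes were 2.90 (edgeR adjusted p = 1.48e-06, SE 0.47) at GV, 2.94 at GV3h and 3.07 at MII. Adult RiboMinus libraries repeated the separation, with 0.0764 to 0.735 CPM in controls, 2.05 to 6.21 CPM in knockouts and a log2 fold change of 3.22 (edgeR adjusted p = 3.88e-06, SE 0.35). The adult groups carry different title tags, 2 per genotype, and with counts summed per tag it was 3.17 (adjusted p = 0.119 by edgeR). The 2 adult knockout tags both lay above both control tags, at 4.03 to 6.21 CPM for AM1713 and 2.05 to 3.34 CPM for AM1757.

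Zfp971 gave lower and more variable counts than its neighbour. At GV3h its lowest, median and highest values were 0, 0.444 and 0.841 CPM in controls and 1.78, 4.38 and 9.66 CPM in knockouts, which did not overlap, a log2 fold change of 3.23 (edgeR adjusted p = 1.20e-05, SE 0.60). The groups overlapped at GV, with 0 to 2.92 CPM against 0.970 to 7.15 CPM, and at MII, with 0 to 0.973 CPM against 0 to 3.80 CPM. The GV change of 1.47 (edgeR adjusted p = 0.0403, SE 0.54) was close to the threshold: the adjusted p was 0.0886 without GV control 1 and 0.0648 without GV dis3cKO 6 and 8. In adult RiboMinus libraries the rise of 1.95 (edgeR adjusted p = 0.0346, SE 0.67) differed between the tags of the knockout: the 4 AM1713 oocytes had 2.63 to 5.65 CPM and the 4 AM1757 oocytes 0.120 to 0.847 CPM, where controls had 0.146 to 1.30 CPM. On the spike-in scale the adult change of Zfp971 was not called (edgeR adjusted p = 0.0748).

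Zfp931 had the highest counts of the 3. Its GV values ran over 10.0 to 31.9 CPM in controls and 14.7 to 59.9 CPM in knockouts, its GV3h values over 6.76 to 20.2 CPM and 22.5 to 51.3 CPM, and its adult RiboMinus values over 3.92 to 8.94 CPM and 14.8 to 23.6 CPM. Control and knockout oocytes were fully separated at GV3h and in adults and overlapped at GV. The log2 fold changes were 1.19 at GV, 1.32 at GV3h, 1.37 at MII and 1.70 (edgeR adjusted p = 6.47e-07, SE 0.16) in adults. In p20 oocytes without Exosc10 alone it was not called.

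Zfp839 moved the other way. Its gene lies on chromosome 12, outside the clusters, and overlaps the pseudogene Mpc1-ps. At GV its lowest, median and highest values were 17.4, 31.7 and 40.4 CPM in controls and 2.85, 8.37 and 21.4 CPM in knockouts, at GV3h 24.5, 30.2 and 39.3 CPM and 3.73, 10.4 and 18.2 CPM, and at MII 10.2, 15.3 and 20.2 CPM and 0.320, 2.44 and 6.81 CPM. Every GV3h and MII knockout oocyte lay below every control of its stage, and 13 of 15 did at GV. The log2 fold change was -1.65 (edgeR adjusted p = 6.49e-06, SE 0.29) at GV, -1.76 at GV3h and -2.55 (edgeR adjusted p = 3.20e-11, SE 0.29) at MII. In adult RiboMinus libraries the controls held 83.3 to 107 CPM and the knockouts 20.2 to 51.1 CPM, a change of -1.47 (edgeR adjusted p = 7.56e-06, SE 0.17). With counts summed per tag it was -1.50 (adjusted p = 0.135 by edgeR). In p20 dis3cKO oocytes the level was 65.5 to 89.9 CPM against 74.9 to 97.1 CPM in controls, -0.18 (edgeR adjusted p = 0.305, SE 0.10).

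**Figure D3:**
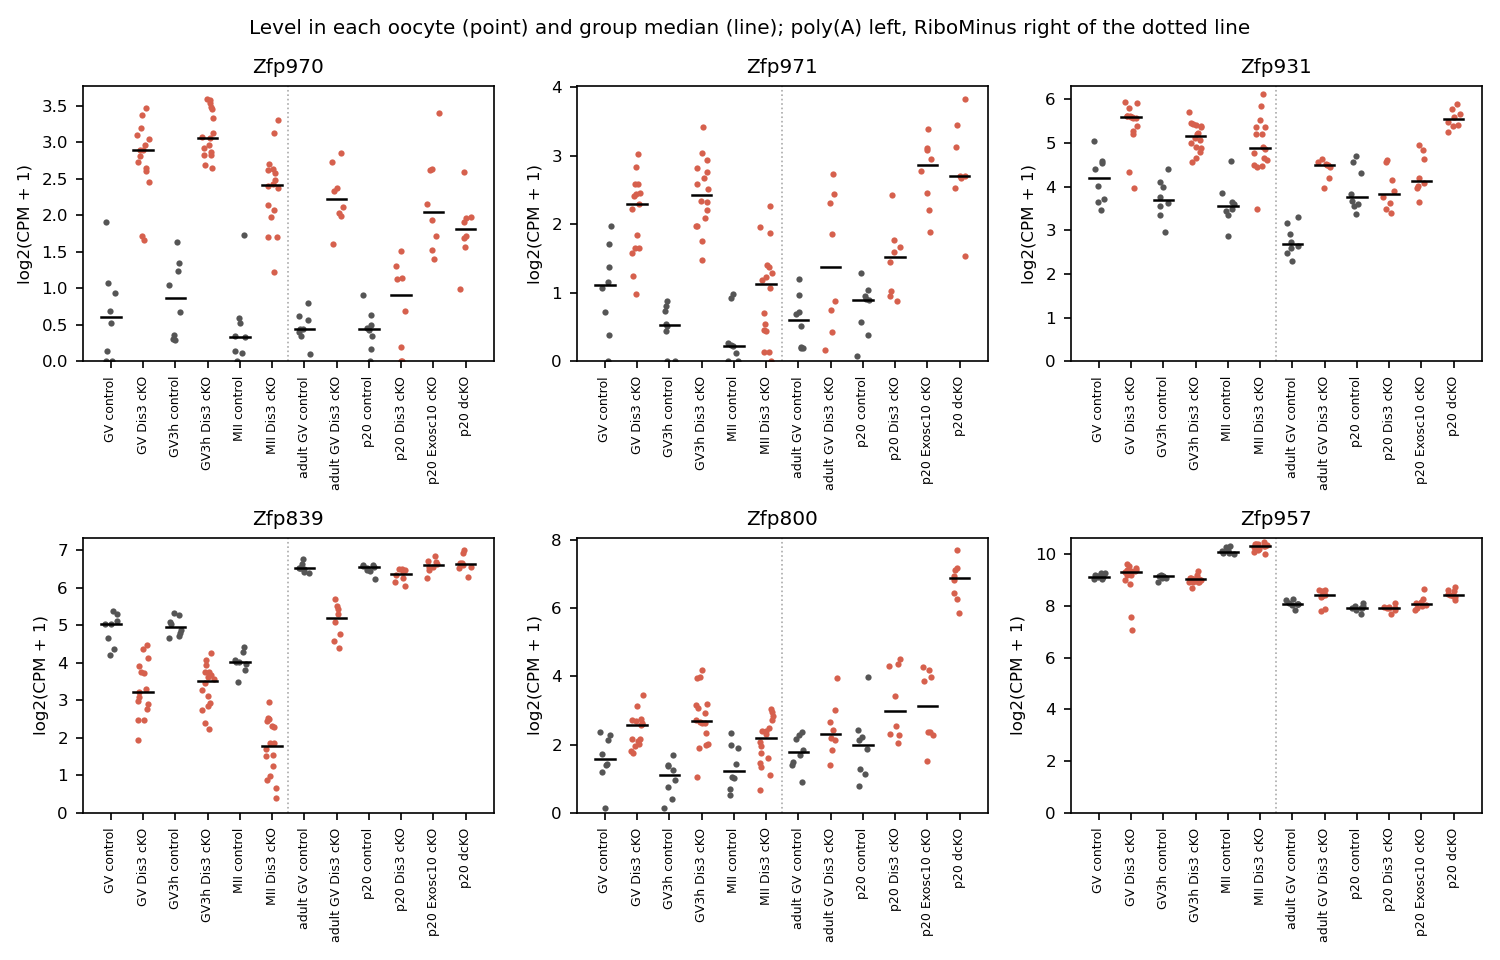
Level of 6 genes in each oocyte (points, grey for control and red for knockout) with the group median (line), as log2 of CPM plus 1, poly(A) groups left and RiboMinus groups right of the dotted line. Zfp970 is higher in Dis3 knockouts of GV, GV3h, MII and adult oocytes, Zfp839 is lower in the same groups but not at p20, and Zfp800 stands out in the p20 dcKO group (57.1 to 205 CPM).

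Other members that rose without Dis3 in GV-stage oocytes lay inside and outside the clusters. Zfp865, which is in none of the 8, separated control from knockout at GV (17.5 to 29.6 CPM against 31.4 to 67.9 CPM, log2 fold change 0.98, SE 0.17, edgeR adjusted p = 9.69e-06) and at GV3h (20.3 to 28.6 CPM against 49.4 to 93.1 CPM, 1.32). Zfp994, in the large chromosome 17 cluster, did so at GV, with lowest, median and highest values of 3.41, 5.18 and 9.46 CPM in controls and 13.8, 19.5 and 25.7 CPM in knockouts and a log2 fold change of 1.67 (edgeR adjusted p = 7.25e-06, SE 0.29). These were the 2 members called at GV whose groups did not overlap, a rule that 3.06% of all tested genes met. At GV3h 5 members met it (Zfp839, Zfp865, Zfp971, Zfp931 and Zfp970), where 9.26% of all genes did. Zfp947, a neighbour of Zfp994, rose by 1.61 (edgeR adjusted p = 0.000725, SE 0.38) at GV with overlapping groups (1.53 to 5.59 CPM and 3.21 to 41.1 CPM).

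Zfp809, which starts retroviral silencing, rose at GV by 0.99 (edgeR adjusted p = 0.0151, SE 0.31), from 4.95, 7.05 and 13.3 CPM (lowest, median, highest) in controls to 8.52, 14.3 and 33.1 CPM in knockouts, and by 0.84 at GV3h. At MII its change was -0.68 (edgeR adjusted p = 0.0547, SE 0.30), and the difference between the MII and GV effects was -1.67 (edgeR adjusted p = 0.00469, SE 0.43). Zfp819, tied to retroelement repression, rose by 2.0 (edgeR adjusted p = 0.000319, SE 0.46) at GV3h (0.726 to 4.08 CPM against 3.57 to 16.8 CPM) and by 1.31 at MII, and its groups overlapped at both stages. Zfp932, an endogenous retrovirus binder, was not called at any of the 3 stages, with log2 fold changes of 0.29 at GV3h and -0.34 at MII. By cluster at GV3h, where 22.9% of all genes were higher and 15.7% lower, 3 of 3 members tested were higher on chromosome 2, 4 of 5 on chromosome 7, 3 of 3 on chromosome 13, 1 of 2 on chromosome 9, 2 of 6 on chromosome 8 and 2 of 10 in the large chromosome 17 cluster. None was called of the 2 tested in the smaller chromosome 17 cluster, and on chromosome 4 none of 10 was higher and 3 were lower. Those 3 (Zfp981, Zfp933 and Zfp990) were not called with counts summed over runs of 4 title numbers, as given below.

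Zfp954 and Zfp800 had wide ranges at GV3h. Zfp954 had 0, 0.549 and 2.15 CPM (lowest, median, highest) in controls and 1.30, 7.19 and 26.2 CPM in knockouts, a log2 fold change of 3.18 (edgeR adjusted p = 0.00235, SE 0.87). Its levels varied oocyte by oocyte even within a genotype: 3 of 8 GV controls were at 5 CPM or above and 3 at 0.5 CPM or below, and 2 and 3 of 15 GV knockouts were. Zfp800, whose human counterpart represses enteroendocrine differentiation, rose by 2.48 (edgeR adjusted p = 7.60e-06, SE 0.45) at GV3h, from 0.0935 to 2.22 CPM to 1.09 to 17.3 CPM, and was not called at GV (0.94, adjusted p = 0.101 by edgeR) or MII (0.92, adjusted p = 0.0642 by edgeR).

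Among the 7 members that fell at MII, Zfp839 was described above. Zfp933 on chromosome 4 had 9.11, 16.8 and 40.5 CPM (lowest, median, highest) in controls and 2.18, 5.94 and 22.9 CPM in knockouts, a change of -1.49 (edgeR adjusted p = 1.48e-05, SE 0.28). Zfp958, among the best-counted genes, fell by 0.90 on the log2 scale, from 41.3 to 104 CPM to 23.2 to 49.6 CPM. Zfp980 fell by 1.06. Zfp953, at 0 to 2.0 CPM in controls and 0 to 7.74 CPM in knockouts, and Zfp954 rose, by 1.92 and 2.72.

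The size of the Dis3 effect differed between MII and GV for 8 of 69 members, 7 of them lower at MII, against 13.2% of all genes, 9.28% higher and 3.88% lower (edgeR interaction term, adjusted p under 0.05). The largest difference was that of Zfp954, 3.68 (edgeR adjusted p = 0.0280, SE 1.19), which was not called with the replicate number as a block (edgeR adjusted p = 0.0559). Zfp994 rose at GV but had overlapping groups at MII (4.11 to 30.3 CPM in controls and 5.5 to 43.7 CPM in knockouts), a difference of -1.30 (edgeR adjusted p = 0.0148, SE 0.38). Zfp958 and Zfp930 gave -0.90 and -0.88. On the spike-in scale the median of this term over all genes was 0.68 and 6 members were higher and 1 lower, against 29.4% and 0.696% of all genes. Without GV control 1 or without MII dis3cKO 15 the number called was 12, by DESeq2 it was 13, and with counts summed over runs of 4 title numbers it was 2. These 4 counts are given without the share of all genes in the same fits and are not compared with it.

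Control oocytes were also compared between GV and 3 h of culture. Of 69 members 1 was called, Zfp961, where 2.71% of all tested genes were, 1.14% higher and 1.56% lower (12 members at an unadjusted p under 0.05, and 4 members called by DESeq2, 2 in each direction). An edgeR fit of only these 2 groups called 10, 3 higher and 7 lower, while ERCC scaling called 0 (10 at an unadjusted p under 0.05) and sums over runs of 4 title numbers 0 (7 at an unadjusted p under 0.05). No share of all genes is given for these alternatives, so their counts cannot be set against that of all genes. Zfp961 fell from 89.4, 98.2 and 119 CPM (lowest, median, highest) to 17.9, 33.9 and 66.1 CPM, with no overlap, a log2 fold change of -1.45 (edgeR adjusted p = 0.00863, SE 0.34). In the knockout at GV3h it was at 63.5 to 147 CPM, higher than in GV3h controls by 1.31 (edgeR adjusted p = 0.000466, SE 0.31). Zfp940 had a control change of -1.61 with an edgeR adjusted p of 0.0824 and rose by 1.9 in GV3h knockouts.

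MII eggs were compared with GV oocytes within each genotype. In controls 17 of 69 members were higher at MII and 11 lower, against 58.5% of all genes called, 22.7% higher and 35.8% lower. In knockouts 10 were higher and 29 lower, against 63.3%, 24.8% higher and 38.5% lower. These are changes in share: MII eggs had fewer gene counts per spike-in count (46.0 ± 3.43 against 137 ± 16.2 in GV controls, SD, n = 8 each), and on the spike-in scale the all-gene medians were -2.12 in controls and -1.50 in knockouts. There 1 member was higher and 61 lower in controls, where 0.334% of all genes were higher and 87.5% lower. In knockouts 0 were higher and 62 lower of 69 (64 at an unadjusted edgeR p under 0.05), against 1.31% and 82.3% of all genes.

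Zfp957 rose in share, from 524 to 624 CPM in GV controls to 1033 to 1285 CPM in MII controls, a log2 fold change of 1.27 (edgeR adjusted p = 7.42e-10, SE 0.17), and by 1.38 in knockouts. On the spike-in scale the knockout change was 0.16 (edgeR adjusted p = 0.303), and in controls Zfp990 was the 1 member called higher, so Zfp957 was not. Zfp846 rose in controls from 16.0 to 25.1 CPM to 35.7 to 46.7 CPM (1.30) and Zfp994 by 1.37, but on the spike-in scale both turned negative, -0.56 and -0.50. Zfp865 fell from 17.5 to 29.6 CPM to 2.52 to 10.9 CPM in controls, a log2 fold change of -1.81 (edgeR adjusted p = 2.91e-12, SE 0.20), and Zfp950 from 10.1 to 21.1 CPM to 1.64 to 6.63 CPM (-1.61). Zfp954 changed by -4.20 in controls, where its MII median was 0 and its highest MII value 0.707 CPM, and Zfp971 by -1.65. In knockouts Zfp958 fell from 146 to 264 CPM to 23.2 to 49.6 CPM (-2.18, SE 0.12, edgeR adjusted p = 4.72e-27), and Zfp948, Zfp879 and Zfp825 by 2.61, 2.19 and 1.66 on the log2 scale. Zfp820 and Zfp819 rose in share in knockouts by 1.66 and 1.47, where no member was called higher on the spike-in scale.

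The chromosome 4 genes Zfp990, Zfp981 and Zfp980 had high and low oocytes within single groups, in runs of the oocyte numbers of the sample titles. In GV controls Zfp990 was at 0 to 0.930 CPM. In GV3h controls numbered 1 to 4 it was at 0.117 to 0.586 CPM, and in those numbered 5 to 8 at 2.62 to 5.05 CPM. All 16 GV3h knockouts were within 0.126 to 1.46 CPM, below the 4 high controls, and the group difference was -2.10 (edgeR adjusted p = 0.000939, SE 0.53). In MII controls 1 to 5 the level was 2.36 to 8.99 CPM and in 6 to 8 it was 0.876 to 1.15 CPM. Among MII knockouts, numbers 13 to 16 had 6.21 to 9.08 CPM, number 12 had 2.58 CPM and numbers 1 to 11 had 0.196 to 1.44 CPM. High and low oocytes thus occurred in both genotypes at MII.

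Zfp981 showed the same control split at GV3h, with 0.585 to 1.29 CPM in numbers 1 to 4 and 4.12 to 5.19 CPM in numbers 5 to 8, against 0.322 to 2.19 CPM in knockouts. Zfp980 split MII controls in the opposite sense, with 6.06 to 13.1 CPM in numbers 1 to 5 and 25.3 to 36.5 CPM in numbers 6 to 8. The labels do not say what the numbers share. These runs of numbers were picked from the values, so they are given with no test, and the GV3h and MII calls on these genes carry that limit. With counts summed over runs of 4 title numbers, the GV3h changes of Zfp990, Zfp981 and Zfp933 had edgeR adjusted p-values of 0.0746, 0.0928 and 0.0689. Besides Zfp990 and Zfp954, Zfp870 had both high and low oocytes in 1 group: 5 of 16 MII knockouts were at 5 CPM or above and 2 at 0.5 CPM or below.

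**Figure D4:**
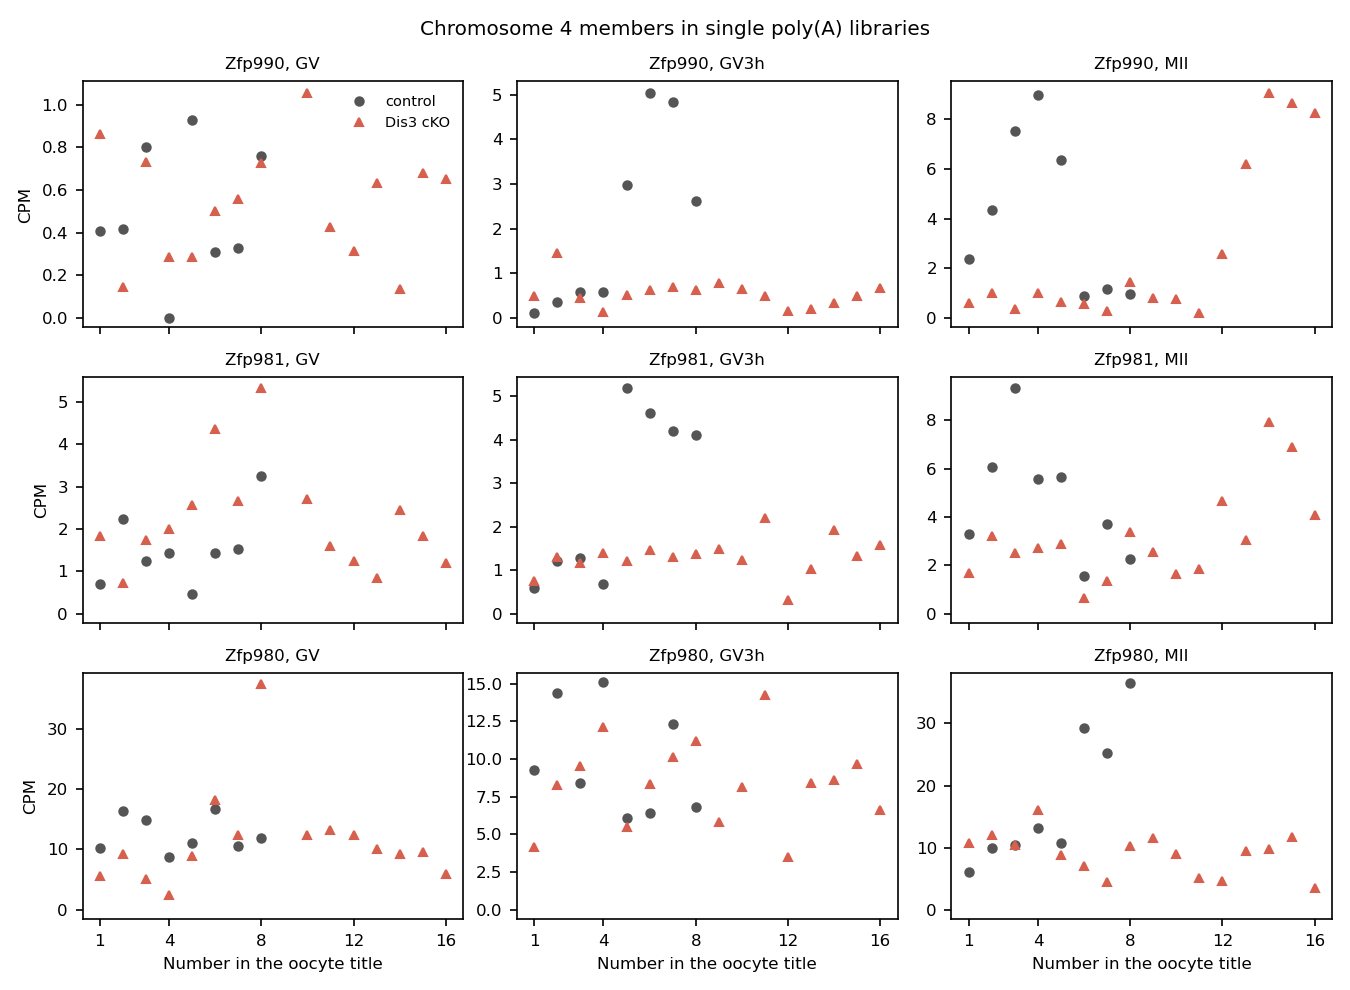
Level (CPM) of Zfp990, Zfp981 and Zfp980 in each poly(A) library against the number in the oocyte title, at GV, GV3h and MII, for control (circles) and Dis3 knockout (triangles). At GV3h the controls numbered 5 to 8 are high for Zfp990 and Zfp981, and at MII the controls numbered 6 to 8 are high for Zfp980 (25.3 to 36.5 CPM).

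Adult total RNA from oocytes without Dis3 is the other GV-stage data set. Of the 26 members called, 7 had groups that did not overlap (Zfp839, Zfp956, Zfp830, Zfp873, Zfp931, Zfp970 and Zfp960), where 6.92% of all tested genes met this rule. Apart from Zfp970, Zfp971 and Zfp931, Zfp867 had the largest rise, from 0.256, 0.498 and 0.973 CPM (lowest, median, highest) to 0.750, 1.92 and 4.84 CPM, a log2 fold change of 1.73 (edgeR adjusted p = 0.00315, SE 0.40). Zfp980 fell from 6.56 to 12.8 CPM to 2.17 to 8.01 CPM, a log2 fold change of -1.13 (edgeR adjusted p = 0.00210, SE 0.25). Zfp809 rose by 0.81. By cluster, where 15.7% of all genes were higher and 12.4% lower, 3 of 3 members tested on chromosome 2, 3 of 4 on chromosome 7, 2 of 2 on chromosome 9, 2 of 6 on chromosome 8 and 3 of 10 in the large chromosome 17 cluster were higher. None was called of the 2 tested on chromosome 13 or the 2 in the smaller chromosome 17 cluster, and on chromosome 4 none of 10 was higher and 1 was lower. When counts were summed per title tag, leaving 2 sums per genotype, no member was called, with 18 at an unadjusted edgeR p under 0.05; the adult changes of Zfp839, Zfp867, Zfp931, Zfp970, Zfp971 and Zfp980 kept their sign.

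At p20 the single knockouts called few members, at shares near those of all genes. Without Dis3 4 of 70 rose and 1 fell, against 7.37% of all genes called, 3.61% higher and 3.76% lower, and without Exosc10 6 rose and none fell, against 7.45%, 3.95% higher and 3.5% lower (edgeR adjusted p under 0.05; 20 without Exosc10 at an unadjusted p under 0.05 in either direction, and 7 higher and 0 lower by DESeq2). On the spike-in scale the Dis3 split was 1 higher and 2 lower, against 0.781% and 5.31% of all genes, and the Exosc10 split 2 higher and 0 lower (12 at an unadjusted edgeR p under 0.05), against 1.35% and 0.944%. With counts summed per tag, edgeR called none without Dis3 (10 at an unadjusted p under 0.05) and 2 without Exosc10. In p20 dis3cKO oocytes Zfp820 rose from 1.77, 4.60 and 8.13 CPM (lowest, median, highest) to 7.50, 13.5 and 15.2 CPM, a log2 fold change of 1.46 (edgeR adjusted p = 0.00250, SE 0.32). Zfp948, its neighbour on chromosome 17, rose by 1.38 (edgeR adjusted p = 0.00565, SE 0.33), Zfp971 by 1.36 and Zfp870 by 1.00, and Zfp961 fell by 0.35 on the log2 scale. All 5 had overlapping groups, and of all genes 2.51% were called with groups apart. Without p20 dis3cKO library 1_4, Zfp971 and Zfp870 were no longer called (edgeR adjusted p = 0.0532 and 0.0831) and 3 members were.

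Without Exosc10 the same chromosome 2 pair stood out. Zfp970 had lowest, median and highest values of 0, 0.360 and 0.879 CPM in p20 controls, 1.64, 3.14 and 9.59 CPM in exo10cKO and 0, 0.897 and 1.84 CPM in dis3cKO oocytes. Zfp971 had 0.0530, 0.868 and 1.45 CPM in controls, 2.69, 6.29 and 9.53 CPM in exo10cKO and 0.848, 1.89 and 4.4 CPM in dis3cKO oocytes. All 8 exo10cKO oocytes exceeded all 8 controls for these 2 genes and for no other member tested, where 1.67% of all genes were called with groups apart. The log2 fold changes were 3.35 (edgeR adjusted p = 0.000316, SE 0.61) for Zfp970 and 2.96 (edgeR adjusted p = 4.50e-06, SE 0.41) for Zfp971. Zfp931, their neighbour, was not called, with 9.35 to 25.0 CPM in controls and 11.6 to 30.0 CPM in exo10cKO oocytes. Zfp850, Zfp977, Zfp940 and Zfp936 rose by 1.43, 1.29, 1.06 and 0.59 with overlapping groups, and Zfp850 was not called with the replicate number as a block (edgeR adjusted p = 0.0620). The dis3cKO and exo10cKO comparisons share the p20 control oocytes.

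The dcKO oocytes had the most members called. Of 70 members 25 rose and 19 fell, against 53.7% of all genes called, 26.6% higher and 27.1% lower (edgeR adjusted p under 0.05). The member median was 0.30 and the all-gene median -0.01. For 16 of the called members the groups did not overlap, a rule that 19.1% of all genes met. The other Zfp genes gave 119 higher and 40 lower of 236.

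The largest rise was that of Zfp800. The p20 controls had 3.37, 3.65, 1.21 and 1.43 CPM under tag 1 and 0.742, 4.42, 2.66 and 14.7 CPM under tag 2. The dcKO oocytes had 112, 205, 144 and 137 CPM under tag 1 and 57.1, 86.6, 123 and 76.6 CPM under tag 2. Every dcKO oocyte was thus above every other p20 oocyte, since the dis3cKO group ranged over 3.13 to 21.8 CPM and the exo10cKO group over 1.84 to 18.2 CPM. The log2 fold change against control was 4.72 (edgeR adjusted p = 7.64e-09, SE 0.53), and against the single knockouts 3.32 (edgeR adjusted p = 1.38e-06, SE 0.50) for dis3cKO and 3.47 (edgeR adjusted p = 8.02e-07, SE 0.50) for exo10cKO. Neither single knockout was called against control, with 1.40 (adjusted p = 0.0762) and 1.25 (adjusted p = 0.113) by edgeR. Summed per tag, it was 4.67 (adjusted p = 0.000222 by edgeR). Zfp800 overlaps 6530409C15Rik and Gm5303 in RefSeq, so without the strand setting reads of these genes cannot be told apart.

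Zfp954, Zfp825, Zfp808, Zfp882 and Zfp809 also rose without overlap in dcKO oocytes. Zfp954 went from 0.106, 1.41 and 5.58 CPM (lowest, median, highest) to 6.79, 16.4 and 20.9 CPM, a log2 fold change of 2.93 (edgeR adjusted p = 7.17e-06, SE 0.50). Zfp825 went from 0.174 to 1.10 CPM to 2.37 to 6.09 CPM (2.84) and Zfp808 from 0.371 to 2.03 CPM to 2.90 to 8.14 CPM (2.45). Zfp882 was near the detection limit in controls (0.0530 to 0.374 CPM) and reached 0.534 to 3.02 CPM in dcKO oocytes (3.21). Zfp809 rose from 1.77, 3.23 and 7.92 CPM (lowest, median, highest) to 8.85, 14.6 and 23.3 CPM, a log2 fold change of 1.87 (edgeR adjusted p = 5.56e-05, SE 0.37), and was not called in either single knockout (0.86 in exo10cKO, edgeR adjusted p = 0.150). In p20 dis3cKO oocytes its mean was below that of controls, 2.51 against 3.81 CPM. The chromosome 2 genes rose as well: Zfp971 by 2.99 (edgeR adjusted p = 2.53e-07, SE 0.41), Zfp970 by 2.63 and Zfp931 by 1.45, all 3 with groups apart.

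Of the 14 chromosome 4 cluster genes 10 were tested in dcKO oocytes, and 6 fell (Zfp981, Zfp980, Zfp933, Zfp979, Zfp984 and Zfp978), where 27.1% of all genes did. The other 4 were not called, and the median log2 fold change of the 10 was -0.79, with the highest at 0.72. This count describes neighbours that share sequence and possibly reads. Zfp933 fell from 9.23, 14.7 and 18.6 CPM (lowest, median, highest) to 0.785, 5.44 and 8.32 CPM, with no overlap, a log2 fold change of -1.63 (edgeR adjusted p = 4.18e-06, SE 0.27). Zfp980 fell from 11 to 20.7 CPM to 1.26 to 12.3 CPM, with 7 of 8 dcKO oocytes below every control (-1.70, SE 0.31, edgeR adjusted p = 1.77e-05). On chromosome 2 3 of 3 tested rose, and on chromosome 8 4 of 6 rose and 1 fell, where 26.6% of all genes rose. The chromosome 7, 9 and 13 clusters had 1 higher each, of 5, 3 and 2 tested, and the chromosome 7 cluster also 1 lower.

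Of the genes that fell elsewhere, Zfp944, in the large chromosome 17 cluster, had 41.7 to 54.9 CPM in controls and 12.3 to 28.0 CPM in dcKO oocytes, with no overlap and a log2 fold change of -1.39 (edgeR adjusted p = 1.78e-09, SE 0.15). In that cluster 2 of 10 were higher and 4 lower, and in the smaller chromosome 17 cluster 1 of 2 was higher and 1 lower. Zfp932 fell from 19.7, 23.9 and 34.5 CPM (lowest, median, highest) to 10.7, 12 and 19.0 CPM, also with no overlap (-1.11, SE 0.15, edgeR adjusted p = 2.63e-07), and in the single knockouts it was at 24.1 to 43.7 CPM and 26.5 to 41.9 CPM. Zfp953 changed by -1.42 with overlapping groups. Zfp943, one of the 5 genes higher in the 4 Dis3 knockout comparisons above, was lower in dcKO oocytes (-0.59, median 33.3 CPM in controls and 26.6 CPM in dcKO). Zfp936 rose without Exosc10 (0.59) and fell in dcKO oocytes (-0.72), with 36.4 to 54.9 CPM in exo10cKO and 11.4 to 28.4 CPM in dcKO oocytes.

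**Figure D5:**
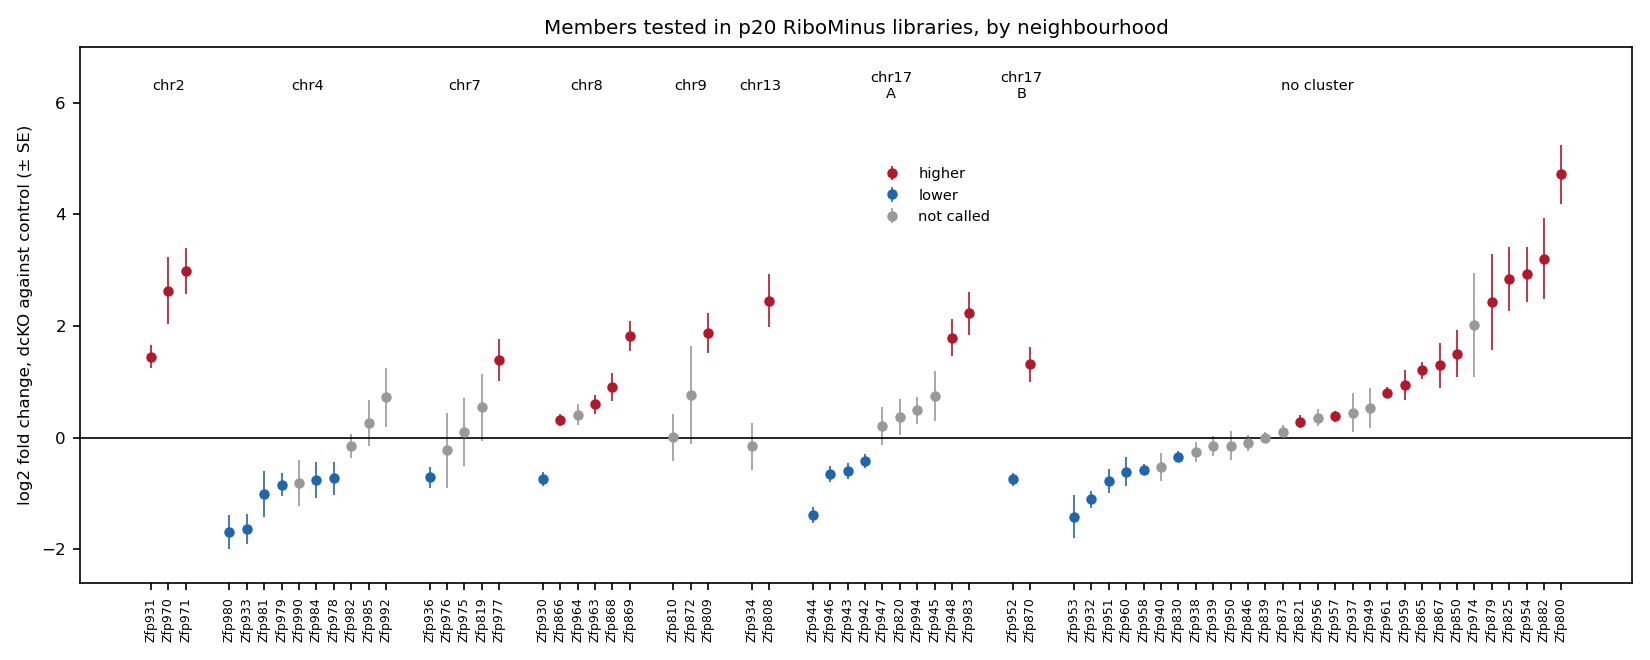
Log2 fold change (points, with 1 SE) of the 70 members tested at p20, dcKO against control, grouped by cluster; red points were called higher, blue lower, grey not called (edgeR, adjusted p under 0.05). Zfp800 is the highest point at 4.72, the 3 chromosome 2 genes are all higher, and 6 of the 10 chromosome 4 genes are lower.

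Set directly against the single knockouts, dcKO oocytes had 22 members higher and 12 lower than dis3cKO oocytes, where 51.5% of all genes were called, 26% higher and 25.5% lower, and 14 higher and 20 lower than exo10cKO oocytes, where 49.2% were, 24.2% higher and 25% lower (edgeR adjusted p under 0.05). On the spike-in scale the first split was 23 and 7, against 27% and 9.92% of all genes. Zfp808 and Zfp825 exceeded both single knockouts without overlap, by 2.93 and 2.52 against dis3cKO and by 2.26 and 2.25 against exo10cKO oocytes. Zfp933 and Zfp932 were below both without overlap, by 2.02 and 1.44 on the log2 scale against dis3cKO. Zfp820, raised without Dis3 alone, was at 2.11 to 13.7 CPM in dcKO oocytes (-1.09, SE 0.32, edgeR adjusted p = 0.00482 against dis3cKO). Zfp940, raised without Exosc10 alone, was at 3.74 to 9.33 CPM in dcKO and 6.29 to 22.3 CPM in exo10cKO oocytes (-1.59, SE 0.25, edgeR adjusted p = 4.11e-06). Zfp970 in dcKO oocytes was not called against exo10cKO, where the ranges overlapped.

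The effect of Dis3 loss was also compared between adult and p20 oocytes. The difference between the 2 effects, a comparison added after the data were seen, was called for 12 of 70 members, 10 with the adult effect higher and 2 lower, against 9.32% of all genes, 5.34% higher and 3.98% lower (edgeR interaction term in the fit of 6 RiboMinus groups). Zfp839 had the smallest p: its adult and p20 effects differed by -1.31 (edgeR adjusted p = 2.03e-06, SE 0.19). Zfp931 differed by 1.72 (edgeR adjusted p = 1.78e-05, SE 0.28), with 9.51 to 23.2 CPM in p20 dis3cKO against 9.35 to 25.0 CPM in p20 control oocytes. Zfp937, Zfp947 and Zfp975 differed by 1.79, 1.52 and 3.03, and Zfp980 by -1.20. On the spike-in scale 1 was higher and 1 lower, against 1.88% and 1.49% of all genes, and with counts summed per tag none was called (14 at an unadjusted p under 0.05). The labels do not say whether the 2 ages were prepared together, and age and preparation cannot be told apart.

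Control oocytes of the 2 ages differed at 18 of 70 members, 4 higher and 14 lower in adults, against 19.1% of all genes, 8.69% higher and 10.4% lower (edgeR adjusted p under 0.05). With counts summed per title tag 2 were called, both lower. Zfp964 had 32.0, 36.3 and 72.9 CPM (lowest, median, highest) at p20 and 7.28, 12.6 and 20.4 CPM in adults, a change of -1.63 (edgeR adjusted p = 3.69e-08, SE 0.20) with no overlap. Zfp931 and Zfp961 were lower in every adult control than in any p20 control (-1.32 and -1.21), and Zfp953 and Zfp937 were lower with overlap (-1.86 and -1.34). Zfp820 was higher in adults, 7.04 to 19.2 CPM against 1.77 to 8.13 CPM (1.58, SE 0.36, edgeR adjusted p = 0.00144). Zfp850, Zfp821 and Zfp866 were higher by 1.05, 0.43 and 0.34. On the spike-in scale, where the all-gene median was -1.69, all 4 genes named as higher turned negative. There 0 members were higher and 65 lower of 70 (also 65 at an unadjusted edgeR p under 0.05), where 0.417% of all genes were higher and 85.7% lower. The ratio of gene to spike-in counts was 403 ± 48.5 in adult and 1267 ± 178 in p20 controls (SD, n = 8 each). Whether both ages received the same amount of spike-in is not known here. On this scale level and preparation thus cannot be told apart.

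The proteins with which KRAB zinc finger proteins act were read from a list of 20 genes of the TRIM28 machinery and of imprint protection (edgeR adjusted p under 0.05). At GV 2 rose and 6 fell, where 21.9% of all genes were called, 13.6% higher and 8.33% lower. At GV3h 3 rose and 7 fell, against 38.6%, 22.9% higher and 15.7% lower. At MII 2 rose and 5 fell, against 42.1%, 27.3% higher and 14.8% lower. In adult RiboMinus libraries 2 rose and 5 fell, against 28.1%, 15.7% higher and 12.4% lower. At p20 1 rose and 1 fell in each single knockout. There 7.37% of all genes were called without Dis3 (3.61% higher, 3.76% lower) and 7.45% without Exosc10 (3.95% higher, 3.5% lower). In dcKO oocytes 4 rose and 4 fell, against 53.7%, 26.6% higher and 27.1% lower. Called in at least 3 of the 7 knockout comparisons were Atf7ip, Cbx3, Chd4, Dnmt1, Morc3, Smarcad1, Trim24 and Uhrf1. No share of all genes is given for this rule, so the number of genes it names is not compared with one. Atf7ip, a partner of SETDB1, changed by -0.37 at GV and -0.59 at MII. Uhrf1, which guides the maintenance methyltransferase, changed by -0.49 at GV and -0.46 at MII, and Dnmt1, that methyltransferase, by -0.69 at GV and -0.84 at GV3h. At MII the Dnmt1 change was 0.36 (edgeR adjusted p = 0.0946), and its MII effect minus its GV effect was 1.04 (edgeR adjusted p = 0.00193). Trim24, a relative of TRIM28, changed by -0.43 at GV, -0.77 at MII and -0.96 in dcKO oocytes, and Chd4, a chromatin remodeller, by -0.32 at GV and -0.44 in dcKO oocytes. Morc3 rose by 0.52 at GV and 0.63 in dcKO oocytes, and Cbx3, an HP1 protein, by 2.34 at GV3h and 3.04 in dcKO oocytes. Cbx3 was near the detection limit, with means of 0.185 CPM in GV3h controls and 1.10 CPM in GV3h knockouts, and 0.740 CPM in p20 controls and 6.85 CPM in dcKO oocytes. Smarcad1 changed by -0.49 at MII and 0.33 in p20 dis3cKO oocytes. Trim28, named as the central corepressor after its values were seen, rose by 0.48 at GV (edgeR adjusted p = 0.0476) and by 0.49 in dcKO oocytes (edgeR adjusted p = 0.000389), and was not called at GV3h, at MII, in adults or in the p20 single knockouts.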

How the data were processed

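RNA was measured in 71 poly(A) and 48 RiboMinus libraries, each of 1 mouse oocyte with ERCC spike-in RNA. The authors deposited whole-number read counts per gene. The submitters' processing notes name cutadapt 2.5, FastQC 0.11.8, STAR 2.7.2a, SAMtools 1.9, HTSeq 0.9.1, R 3.5.1, DESeq2 1.24.0 and the build mm10. The strand setting and the annotation release are not given in the sources used here. The chromatin profiling libraries of the series were not used here, and 1 gene with a symbol of this form is not reported here.

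Counts were tested in R 4.3.3 with edgeR 4.0.16 (TMM scaling, filterByExpr, quasi-likelihood F test), with Benjamini-Hochberg adjustment over all genes that passed the filter and a threshold of 0.05. The 6 poly(A) groups, the adult pair, the 4 p20 groups and, across ages, the 6 RiboMinus groups were fitted separately. CPM was computed per library. The test was checked on simulated counts for 4 comparisons (GV dis3cKO, adult dis3cKO and p20 dcKO against control, and control adult against p20). In this order, 57%, 60%, 49% and 57% of simulated log2 changes of 1 were recovered. For simulated log2 changes of 2 the shares were 87%, 80%, 74% and 76%. Of the unchanged genes 6, 6, 6 and 5 were called. A gene not called may thus still have changed. Genes were named by level (the 10 highest medians in GV controls), by size (up to 4 called per direction and comparison with a group mean of at least 1 CPM) and by on-or-off levels (at least 5 CPM in 2 libraries and at most 0.5 CPM in 2 others of a group), and other genes named beside these serve to describe a cluster or a known role and were chosen after their values were seen. Alternatives were DESeq2 1.42.0, its size factors, ERCC scaling, no filter, a replicate block, smaller fits, summed counts and left-out libraries. The members, gene lists, motifs and promoters shown were chosen with earlier results of these data known. Replicates are oocytes, and intervals between animals could not be had.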

Additional observations from a re-analysis of the deposited data

Results flagged for a closer look

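A library far from the others of its group (Dixon's test) was found in 14 of 137 tests on named genes. Normally distributed values would give about 1 in 20 groups. The genes were named from these data and some lie near the detection limit, so the 14 are not compared with that rate. In poly(A) GV control library 1, which also stood apart by its correlation with its group, Zfp958 was high at 287 CPM, Zfp956 low at 41.6 CPM and Zfp970 high at 2.75 CPM. In MII controls, Zfp970 was at 2.32 CPM in library 2 and Zfp994 at 30.3 CPM in library 8. In p20 control library 2_4, 5 genes were high: Zfp948 (5.28 CPM), Zfp977 (7.11 CPM), Zfp800 (14.7 CPM), Zfp954 (5.58 CPM) and Zfp964 (72.9 CPM). In p20 dis3cKO library 2_1, Zfp971 was at 4.4 CPM and Zfp808 at 2.57 CPM. Zfp970 was at 9.59 CPM in p20 exo10cKO library 2_4, and Zfp839 was low at 74.9 CPM in p20 control library 1_3.

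The Dis3 effect differed between MII and GV oocytes (edgeR interaction term, log2 scale) for Zfp952 (-0.69), Zfp809 (-1.67), Zfp846 (-0.81), Zfp958 (-0.90), Zfp930 (-0.88), Zfp954 (3.68), Zfp942 (-0.83) and Zfp994 (-1.30). It differed between adult and p20 RiboMinus oocytes for Zfp839 (-1.31), Zfp830 (0.42), Zfp940 (1.18), Zfp980 (-1.20), Zfp937 (1.79), Zfp947 (1.52), Zfp936 (0.92), Zfp975 (3.03), Zfp946 (0.57), Zfp865 (0.77), Zfp931 (1.72) and Zfp994 (1.40). For Zfp975 the adult knockout oocytes under tag AM1713 had 1.44 to 2.98 CPM and those under AM1757 0.480 to 1.11 CPM.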

How the results depend on the processing

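With the size factors of DESeq2 in edgeR and with no low-count filter, all 15 member counts stayed within 1.5 times their value. ERCC scaling moved 9: GV 6, control GV3h against GV 0 (10 at an unadjusted edgeR p under 0.05), control MII against GV 62, knockout MII against GV 62, adult RiboMinus 13, p20 dis3cKO 3, p20 exo10cKO 2, control adult against p20 65 and the adult minus p20 effect 2. On that scale 69 of 96 named changes kept direction and call, 21 lost the call and 6 reversed: Zfp820 (-0.0934), Zfp821 (-1.27), Zfp850 (-0.67) and Zfp866 (-1.38) between ages, and Zfp846 (-0.56) and Zfp994 (-0.50) between control MII and GV. Summing over runs of 4 title numbers gave 7 at GV, 13 at GV3h, 0 for control GV3h against GV and 2 for the MII minus GV effect. Summing per title tag gave 0 in adult RiboMinus (18 unadjusted), 0 in p20 dis3cKO (10 unadjusted), 2 in p20 exo10cKO, 2 between ages and 0 for the adult minus p20 effect (14 unadjusted). Of the named changes, 11 of 43 lost their call when summed over title numbers and 27 of 53 when summed per tag. DESeq2 gave 4 for control GV3h against GV and 13 for the MII minus GV effect. A fit of only the groups compared gave 10 for control GV3h against GV. The cause was not tested, except that summed counts leave fewer samples. For the alternatives of this section, the share of all genes is given only where stated above.

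Left-out libraries were chosen after seeing the data. The counts called then ranged over 13 to 15 at GV, 2 for control GV3h against GV (without GV control 1), 24 at MII, 29 to 31 for control MII against GV, 36 to 40 for knockout MII against GV, 10 to 12 for the MII minus GV effect, 3 to 6 in p20 dis3cKO, 8 in p20 exo10cKO and 46 in dcKO. Without p20 dis3cKO 1_4 the p20 dis3cKO count was 3. Same-numbered libraries deviated together little on average, though single pairs did. Over 142 poly(A) pairs the mean correlation was 0.0244 (range -0.226 to 0.253), with 25 over 0.1. Differently numbered poly(A) pairs had a mean of -0.00166. Over 48 p20 pairs it was 0.0225 (range -0.444 to 0.531), with 13 over 0.1, against -0.00337 for differently numbered pairs. What single pairs share was not tested. With the replicate number as a block, the counts were 15 at GV, 29 at GV3h, 21 at MII, 5 in each p20 single knockout and 44 in dcKO, and 74 of 76 named changes kept their call (Zfp954 for the MII minus GV effect had an edgeR adjusted p of 0.0559 and Zfp850 in exo10cKO 0.0620).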
